A study of Mus musculus with 6 samples.

Results

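Serpins are a superfamily of proteins that mostly inhibit serine proteases, and the genes described here are the serpin genes outside the coagulation and complement cascades in mouse liver. They were found by symbol in the probe annotation, where 24 of the 30 serpin genes with a probe set of their own met that rule, out of 12393 genes on the array. From the serpins outside the cascades, 7 genes had been chosen on the contrast of injected and not-injected livers: Serpina12, Serpina6, Serpinb1a, Serpinb8, Serpinb9, Serpine2 and Serpinh1. They were not the 7 with the largest differences. Because that contrast chose them, their values are given as a description, with no p-value, and counts of calls that include them support nothing. The annotation listed 6 of the 7, with 9 probe sets. It paired no probe set with Serpine2, the gene of protease nexin-1, which was not analysed here.

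The animals were wild-type C57 mice at 1 month of age. In 3 of them the liver had received an adenoviral vector, in the group called TFEB-injected, and 3 were not injected, with 1 Affymetrix array for each liver. TFEB is a transcription factor that acts on genes of lysosomes and autophagy. The labels name no liver given an empty vector, so injection, vector and TFEB cannot be told apart. The promoter that drove the transgene is not stated in the labels. The comparison asks how transcript levels in liver differ after delivery of TFEB.

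Most serpins act as suicide substrates. An exposed reactive centre loop is cut by the target protease, the serpin then refolds, and the protease is trapped in a covalent complex. Clade A serpins are secreted, and the liver is the main source of many of them in plasma, while clade B serpins lack a classical signal peptide and act mainly inside cells, where they protect the cell from proteases of granules and lysosomes. Some members have lost inhibition and carry hormones or help other proteins fold.

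All values are log2 expression values per probe set, on which a difference of 1 is a doubling of the signal. The lower quartile of the arrays lay between 5.45 and 5.55, and a probe set with both group means below 5.45 is called low here, since no detection calls were used. Arrays correlated at 0.997 to 0.998 within not-injected livers and at 0.992 to 0.997 within injected livers. Injected replicate 2 was the array of its group that stood apart, at 0.992 with both of the others, which correlated at 0.997 with each other. Its difference from the not-injected mean was 73.2% (median) of that in the other injected livers over the 474 genes called with a difference of at least 1. The 42 probe sets of spike-in controls were lower in injected livers, by -0.57 to -0.06, and their part in any difference was not tested. The single probe set of Tfeb read 7.52 without injection and 7.58 with it, and whether it can detect the transgene was not tested. The liver was recognisable on all arrays, since none of the 9 measured hepatocyte markers was low and Alb, which encodes albumin, read 15.03 to 15.09.

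Promoter windows are shown for genes on which the account below turns: Serpina12, with the largest fall among serpin genes, and Serpinb8, Serpinb9 and Serpinb9g, which were higher in injected livers in different ways. Each window runs from 250 bases before to 50 bases after the transcript start, is taken from RefSeq's GRCm38.p6 annotation and is written 5′ to 3′ on the strand of the gene. Capitals mark a match to one of the motifs searched. Windows were given for 26 of the 30 serpin genes, 29 windows in all. Serpina6 and Serpinb1a had no entry.
Serpina12 (chr12:104044394-104044693, minus strand): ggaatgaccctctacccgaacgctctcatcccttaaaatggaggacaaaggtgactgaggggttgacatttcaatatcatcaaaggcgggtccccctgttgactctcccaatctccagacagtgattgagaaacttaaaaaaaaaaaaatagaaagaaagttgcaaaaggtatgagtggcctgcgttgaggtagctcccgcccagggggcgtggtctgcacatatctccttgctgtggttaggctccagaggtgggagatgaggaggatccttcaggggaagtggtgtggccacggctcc
Serpinb8 (chr1:107589756-107590055, plus strand): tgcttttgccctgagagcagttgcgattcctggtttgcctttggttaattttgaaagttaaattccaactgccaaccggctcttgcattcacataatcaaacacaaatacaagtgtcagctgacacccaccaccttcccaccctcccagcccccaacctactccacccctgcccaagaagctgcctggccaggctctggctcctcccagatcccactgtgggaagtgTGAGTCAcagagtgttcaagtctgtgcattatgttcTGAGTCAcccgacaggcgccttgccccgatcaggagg
Serpinb9 (chr13:33004291-33004590, plus strand): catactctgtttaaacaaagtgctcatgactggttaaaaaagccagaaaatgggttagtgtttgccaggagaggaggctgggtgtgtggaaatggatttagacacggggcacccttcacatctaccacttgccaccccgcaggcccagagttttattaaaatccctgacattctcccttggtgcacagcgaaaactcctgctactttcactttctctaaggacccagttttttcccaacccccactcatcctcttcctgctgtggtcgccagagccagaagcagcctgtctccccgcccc
Serpinb9g (chr13:33484540-33484839, plus strand): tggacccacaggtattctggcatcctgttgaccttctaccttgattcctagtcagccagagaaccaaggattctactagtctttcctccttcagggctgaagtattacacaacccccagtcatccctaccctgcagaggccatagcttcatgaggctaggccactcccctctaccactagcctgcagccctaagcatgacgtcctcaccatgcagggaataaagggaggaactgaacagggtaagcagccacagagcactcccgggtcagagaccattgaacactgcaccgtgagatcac

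The motifs searched on both strands were CACGTG, the E-box core that TFEB binds, TCATGTG, a related core known as the M-box, TGACTCA, the site of AP-1, and TGACNNNGC, the core of the antioxidant response element. CACGTG was found in 0 of the 29 serpin windows, against 7.15% of all 32851 windows in the table. Among serpins higher in injected livers, the window of Serpinb8 held TGACTCA at 2 places on the minus strand (read as TGAGTCA in the sequence above), starting 23 bases before and 14 bases after the transcript start, and 5.2% of all windows held it at least once. TGACTCA was also found in the windows of Serpinb7, Serpina1b and Serpina1c, none of which was called. TGACNNNGC, in 12.4% of all windows, was found for Serpinb6a and Serpind1, and TCATGTG, in 3.77%, for Serpinc1. The windows of Serpina12, Serpinb9 and Serpinb9g held none of the motifs. These are matches of letters in a short window, not sites of binding.

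Among serpin genes with a probe set of their own, Serpina12 had the largest difference over all 6 arrays. It encodes vaspin, an adipokine that inhibits kallikrein 7. Its brighter probe set read 12.33, 12.78 and 12.81 in the not-injected livers and 8.11, 9.83 and 8.33 in the injected livers. All injected livers lay below all not-injected livers, and the highest of the injected values was that of replicate 2. The group means were 12.64 ± 0.27 and 8.76 ± 0.93 (SD, n = 3), a difference of -3.88 ± 0.41 (SE), or 14.8-fold. Taken one by one, the injected livers were 23.1-fold, 7.03-fold and 19.9-fold below the not-injected mean. The other probe set of Serpina12 read 6.82, 7.30 and 6.95 without injection and 6.12, 6.01 and 5.67 with it, a difference of -1.09 ± 0.16, or 2.13-fold. Both probe sets were therefore lower in every injected liver, by unequal amounts. Adipocyte genes bear on a transcript best known from fat, and of 5 measured, Adipoq and Lep, which encode adiponectin and leptin, were low in both groups, Retn read 6.45 against 6.36, and Fabp4, at 8.51 against 9.40, did not pass. Lpl, at 10.12 against 11.56, rose. The part of such cells in the Serpina12 values was not tested.

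Serpina6 encodes corticosteroid-binding globulin, the carrier of glucocorticoids in plasma, which does not inhibit proteases. It read 10.55, 10.46 and 10.47 in not-injected livers and 9.51, 9.99 and 9.95 in injected livers. The groups did not overlap, and injected replicate 1 was the lowest. The difference was -0.67 ± 0.13, or 1.6-fold. It was -0.52 without injected replicate 1 and -0.76 without injected replicate 2.

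Serpinb8 had the largest difference among the named clade B genes. It encodes an intracellular inhibitor of furin. The livers that were not injected read 5.79, 5.96 and 5.81, close to the lower quartile of the arrays, and the injected livers read 7.87, 8.41 and 7.82. The groups were far apart, and injected replicate 2 read the highest. The means were 5.86 ± 0.096 and 8.03 ± 0.33, a difference of 2.18 ± 0.15, or 4.52-fold. Since the level without injection was only a little above that quartile, this fold is not exact.

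Serpinb9, whose protein blocks granzyme B and shields cells from cytotoxic granules, was higher in all injected livers too. It read 7.80, 7.80 and 7.95 without injection and 9.27, 8.87 and 9.09 with it. The difference was 1.23 ± 0.11, or 2.34-fold, and it ran from 1.13 to 1.33 when 1 array was left out. Serpinb9 was thus the named riser with the smallest spread among injected livers, at an SD of 0.2.

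Serpinb1a and Serpinh1 differed little between the groups. Serpinb1a encodes an inhibitor of neutrophil elastase, cathepsin G and proteinase 3. Its brighter probe set read 6.09, 5.67 and 5.86 without injection and 5.90, 6.44 and 5.95 with it, so that the groups overlapped and only injected replicate 2 lay above all not-injected livers. The difference of 0.22 ± 0.16 fell to 0.05 without that replicate. The other probe set was low, with a difference of 0.18 ± 0.09.

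Serpinh1 encodes HSP47, a collagen chaperone of the endoplasmic reticulum. One probe set read 8.14, 8.15 and 8.31 without injection and 8.52, 8.20 and 8.40 with it, and the other 6.55, 6.50 and 6.60 against 7.08, 6.53 and 7.02. In both, injected replicates 1 and 3 lay above all not-injected livers and injected replicate 2 lay among them. The differences were 0.17 ± 0.10 and 0.32 ± 0.14. Without injected replicate 2 the brighter probe set differed by 0.26 and was called higher, and after another quantile normalisation it differed by 0.08.

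**Figure D1:**
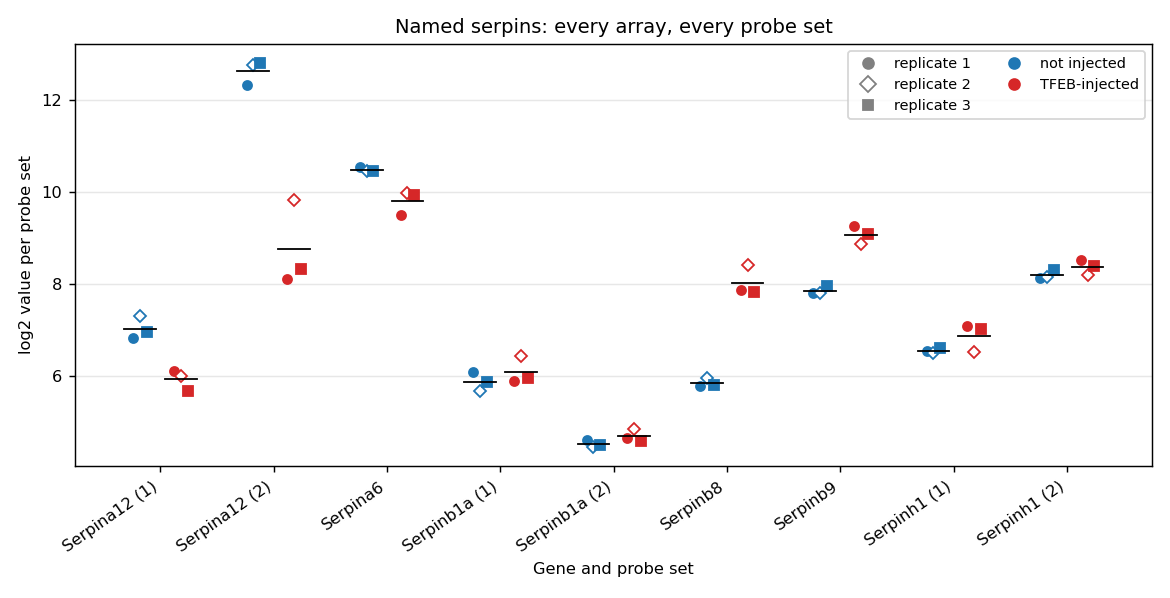
Log2 values of the 9 probe sets of the named serpins in each array, with not-injected livers in blue, injected livers in red, replicate 2 of each group as an open diamond and the group mean as a line. The Serpina12 (2) values without injection, 12.33 to 12.81, lie far above those with it, 8.11 to 9.83, and Serpinb8 and Serpinb9 are higher in every injected liver.

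The replicates did not respond alike across these genes. Of the 9 probe sets, injected replicate 2 was the least changed of the injected livers in 5, the middle one in 1 and the most changed in 3. The 3 in which it changed most were the probe set of Serpinb8 and both of Serpinb1a. In the brighter Serpina12 probe set its difference from the not-injected mean was 63.7% of that in the other injected livers, in Serpina6 65.9% and in Serpinb9 77%, beside 129% in Serpinb8.

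Of the 6 named serpins with a probe set, 2 were called higher and 2 lower by limma at an adjusted p under 0.05, where 28.1% of all genes were called, 14.2% higher and 13.9% lower. As this contrast chose the genes, the count is read no further. The groups did not overlap in 4 of the 6, as in 46.2% of all genes. When every probe set was tested on its own, 25.0% were called.

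The whole family is given by clade, as a description, since the named serpins in it were chosen on this contrast. Of the 14 clade B genes 4 were called higher and 0 lower, and of the 16 other serpins 0 were called higher and 7 lower, beside 14.2% of all genes called higher and 13.9% lower. Without the named serpins, 2 of 11 clade B genes were higher and 0 lower, with a median of -0.02, and 0 of 13 other serpins were higher and 5 lower, with a median of -0.16. Over all serpins the median difference was 0.14 in clade B and -0.19 in the other serpins, beside -0.05 over all genes. The difference between clades itself was not tested. Of the 24 genes outside the cascades, 4 were higher, 4 lower and 16 not called, and 6 were low in both groups, all 6 of them uncalled. Without injected replicate 2 the counts over all 30 serpins were 8 higher and 8 lower, against 4 and 7 with it. The calls of Serpinb6a and Serpina3a were lost without any of not-injected replicates 2 and 3 and injected replicates 1 and 3, and that of Serpina3a also without not-injected replicate 1.

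**Figure D2:**
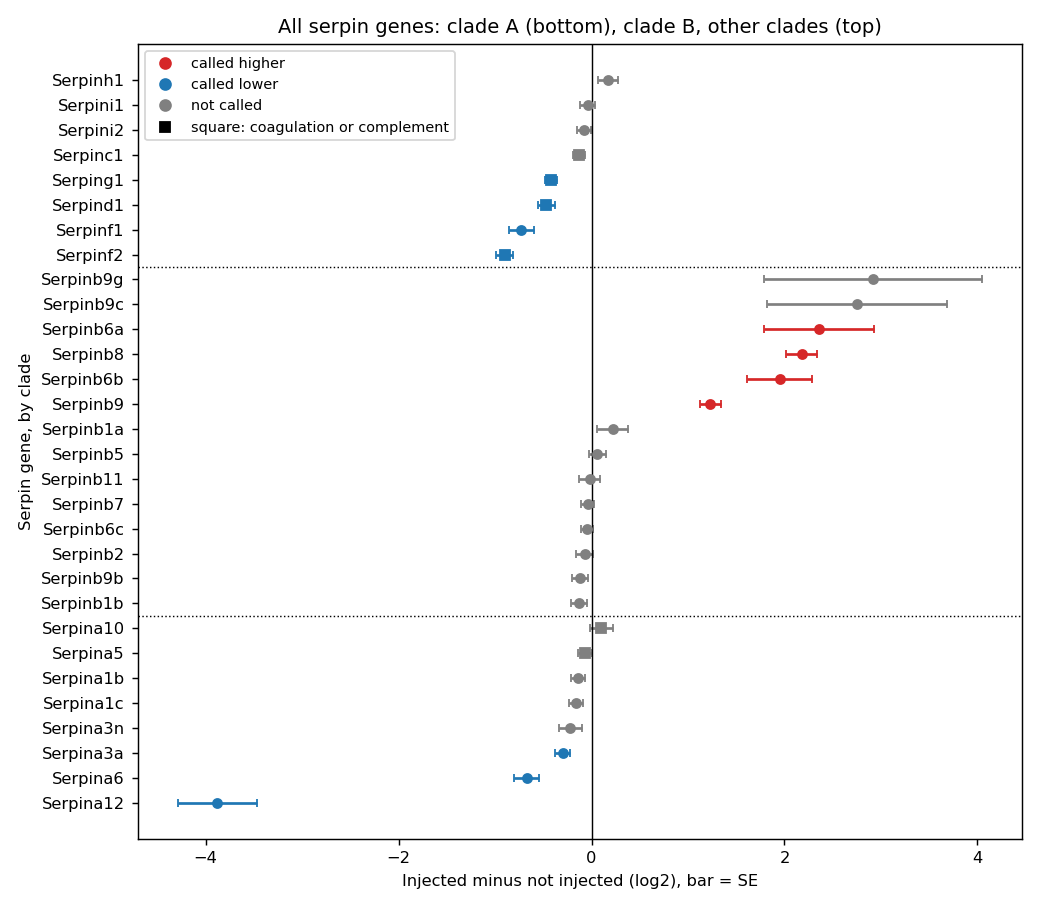
Difference between injected and not-injected livers for the 30 serpin genes (points, log2) with the limma SE (bars), clade A at the bottom, clade B in the middle and other clades at the top. Squares are coagulation or complement serpins, and colour gives the call. All red points lie in clade B, where the 4 genes called higher differ by 1.23 to 2.36, and all blue points lie in the other clades.

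Serpinb6a and Serpinb6b were the other clade B genes called higher. Serpinb6a is the mouse counterpart of an inhibitor of cathepsin G and of lysosomal proteases. It read 8.83, 8.57 and 8.38 without injection and 11.72, 9.43 and 11.71 with it, a difference of 2.36 ± 0.56. Replicates 1 and 3 were 8.73-fold and 8.66-fold above the not-injected mean and replicate 2 1.78-fold. Serpinb6b read 7.28, 6.91 and 6.92 against 9.59, 8.14 and 9.23, a difference of 1.95 ± 0.33. Every injected liver was above every not-injected liver for both genes. Their relative Serpinb6c was low in both groups (-0.05 ± 0.06).

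Paralogs of Serpinb9 behaved differently from Serpinb9. Serpinb9g read 3.77, 3.85 and 3.65 in not-injected livers and 8.24, 3.59 and 8.21 in injected livers. Serpinb9c read 3.45, 3.60 and 3.69 against 7.50, 3.80 and 7.70. Both genes were thus near the floor of the arrays in not-injected livers and in injected replicate 2, and high in injected replicates 1 and 3. Their differences, 2.92 ± 1.12 for Serpinb9g and 2.75 ± 0.92 for Serpinb9c, did not pass the threshold over all arrays, and were 4.46 and 4.02 and called without injected replicate 2. Their folds are not exact, because the lower level was near the floor.

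A second probe set of Serpinb9c was low in both groups, at a difference of 0.20 ± 0.14. A probe set that the annotation gives to several Serpinb9-like genes, and from which no gene can be named, read 5.45, 5.43 and 5.54 without injection and 11.24, 6.03 and 11.14 with it. Genes of this group are close in sequence, and their probes may share signal. Serpinb9b differed by -0.12 ± 0.08 and was not called.

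In the promoter windows, Serpinb9g was 93.4% identical to Serpinb9e over 304 aligned positions and 44.6% identical to Serpinb9 over 350. Serpinb9c has 2 windows, and the one compared was 60.4% identical to that of Serpinb9g. The window of Serpinb9 was 57.4% identical to that of Serpinb9b. Over the 171 pairs of clade B windows compared, the median identity was 46.1%, so that the windows of Serpinb9 and Serpinb9g were no more alike than most pairs. These pairs used a single window of each gene and did not cover all of clade B, leaving out Serpinb2, Serpinb5 and Serpinb7 among others. Serpinb9e had no probe set of its own.

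The clade B genes of chromosome 13 form 1 run of neighbouring protein-coding genes in the RefSeq table of GRCm38.p6, and 9 of them were measured. In chromosomal order these were Serpinb1a, Serpinb6b, Serpinb9, Serpinb9b, Serpinb1b, Serpinb9c, Serpinb9g, Serpinb6c and Serpinb6a. Genes that were higher in injected livers lay between genes that were not. Serpinb9 and Serpinb9b are next to each other and differed by 1.23 and -0.12. Of the clade B genes on chromosome 1, Serpinb8 was called, while Serpinb5, Serpinb11, Serpinb7 and Serpinb2 were not, with differences of -0.07 to 0.06.

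**Figure D3:**
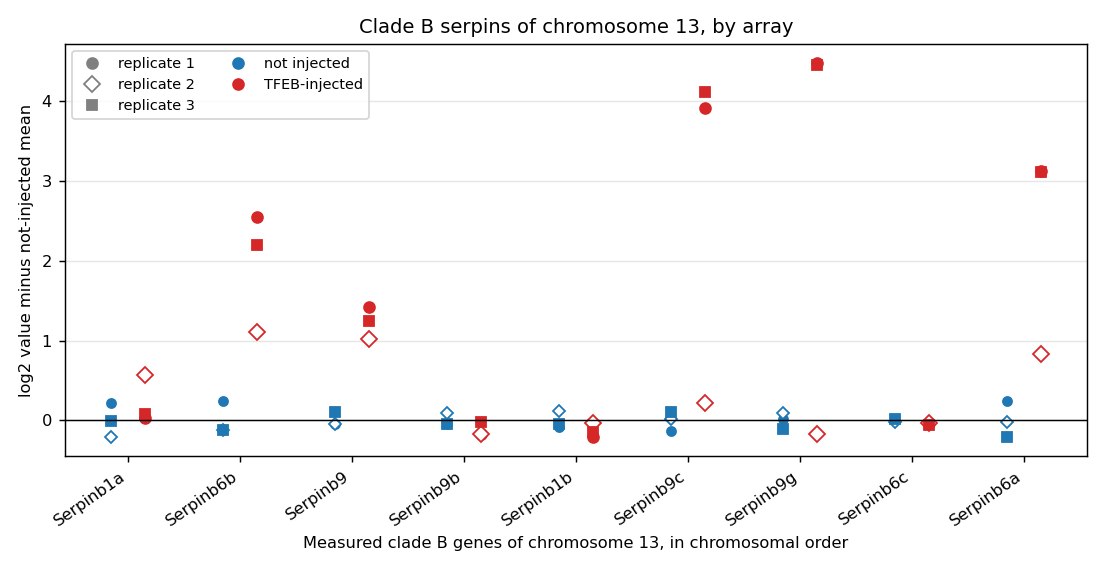
Log2 value minus the not-injected mean in each array (blue not injected, red injected, open diamonds replicate 2) for the 9 measured clade B genes of chromosome 13, in chromosomal order. Serpinb9c and Serpinb9g are high in injected replicates 1 and 3 and near 0 in replicate 2, whereas Serpinb9 is higher in all 3.

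The secreted serpins outside the cascades were lower or did not pass. Serpinf1 encodes pigment epithelium-derived factor, a secreted protein that does not inhibit proteases. It read 13.06, 13.03 and 13.05 in not-injected livers and 12.11, 12.64 and 12.21 in injected livers, a difference of -0.73 ± 0.13. Its other probe set gave -0.82 ± 0.16. Serpina3a was lower by -0.30 ± 0.08, from 6.17, 6.19 and 6.17 to 5.89, 5.99 and 5.75.

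The alpha-1 antitrypsin genes Serpina1b and Serpina1c differed by -0.14 ± 0.07 and -0.16 ± 0.07 and were not called, although their groups did not overlap. A probe set given to 3 of the antitrypsin genes at once read 13.23, 13.32 and 13.35 against 11.90, 12.57 and 11.90, and no gene can be named from it. The acute phase gene Serpina3n differed by -0.22 ± 0.12 and was not called, and the neuroserpin gene Serpini1 and the related Serpini2 read -0.04 ± 0.08 and -0.08 ± 0.07.

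For comparison, 3 of the 6 serpins of the coagulation and complement cascades fell and 0 rose. Over all genes, 13.9% were called lower and 14.2% higher. Serpinf2, which encodes the plasmin inhibitor antiplasmin, fell by 0.90 ± 0.09 (limma adjusted p = 0.000713), Serpind1, heparin cofactor II, by 0.47 ± 0.09 (adjusted p = 0.00682) and Serping1, the C1 inhibitor, by 0.42 ± 0.06 (adjusted p = 0.00363). Antithrombin, encoded by Serpinc1, read -0.13 ± 0.06 and did not pass.

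Genes known to interact with serpins were followed in lists of known partners. The list of receptors and binding partners is for serpins in general. Only its member Hspa5 is linked below to a measured named serpin. Of 8 receptors and binding partners 0 rose, 6 fell and 2 did not pass, with a median difference of -0.42, beside 13.9% of all genes called lower. Hspa5, which encodes the chaperone GRP78, known to bind vaspin, read 13.60, 13.73 and 13.80 without injection and 13.08, 13.14 and 13.24 with it. It fell by 0.55 ± 0.08 (limma adjusted p = 0.00267). Lrp1, the endocytic receptor that clears serpin-protease complexes, fell by 0.56 ± 0.10 (adjusted p = 0.00769), and the glypican gene Gpc1 by 0.85 ± 0.16 (adjusted p = 0.00741). Lrp8 and Vldlr did not pass. Lrp2, counted among the falls, read 5.08 against 4.58 and was low in both groups, as was Vldlr. The calls of Hspa5, Lrp1 and Gpc1 were kept without each array in turn. The other 3 were not: that of Sdc1 was lost without not-injected replicate 3, that of Lrp2 without injected replicate 1 or 3, and that of Sdc4 without any of these or not-injected replicate 2.

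Over all partner and marker lists, 44 of 148 genes were called, or 29.7%, beside 28.1% of all genes. Of the 44, 21 were called without each array in turn and 23 lost the call without at least 1 array. Leaving out not-injected replicate 3 gave 23 called genes, and leaving out not-injected replicate 2 gave 26. With injected replicate 1 left out there were 29, and with injected replicate 2 left out 62.

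**Figure D4:**
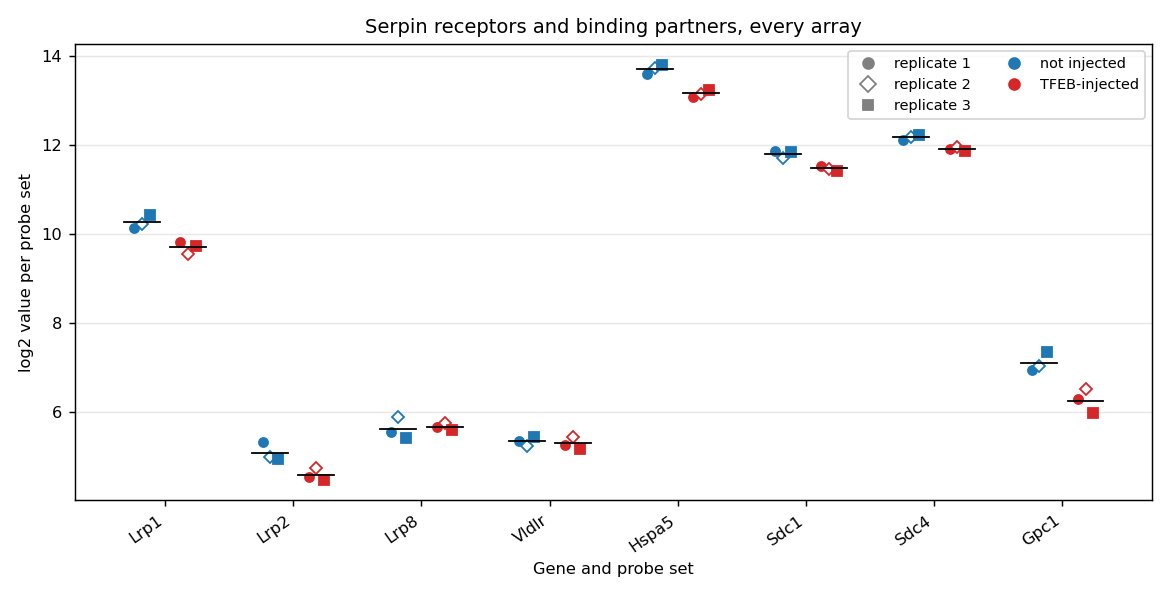
Log2 values of the 8 receptors and binding partners of serpins in each array (blue not injected, red injected, lines are group means). In Hspa5 the 3 injected livers, 13.08 to 13.24, lie below the not-injected livers, 13.60 to 13.80.

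Of 12 proteases listed as targets of the named serpins, 2 rose, 1 fell and 9 did not pass. The median difference was -0.06, and over all genes 14.2% were called higher and 13.9% lower. The list was made for all named serpins, among them Serpine2, which was not analysed. Prss8, encoding prostasin, rose 6.13-fold (2.62 ± 0.27, limma adjusted p = 0.00076), Casp4 by 0.91 ± 0.24 (adjusted p = 0.0276), and prothrombin, encoded by F2, fell by 0.35 ± 0.06 (adjusted p = 0.00468). The products of Prss8, Casp4 and F2 are not among the targets given above for the measured named serpins. The direct targets of the members with the largest differences did not pass. Klk7, the target of vaspin, read -0.36 ± 0.13, Furin, the target of the Serpinb8 product, -0.14 ± 0.07, and Gzmb, the target of the Serpinb9 product and low in both groups, 0.11 ± 0.15. Of 6 measured genes of the plasminogen system, Plgrkt rose by 0.42 ± 0.09 (adjusted p = 0.0104), Plg fell by 0.29 ± 0.08 (adjusted p = 0.0276), Serpinf2 fell as above, and 3 did not pass. The calls of Casp4 and Plg were both lost without any array other than injected replicate 2.

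Serpina6 carries glucocorticoids, and of 12 genes of glucocorticoid handling and response 2 rose, 5 fell and 5 did not pass, with a median of 0.00, beside 14.2% and 13.9% of all genes called higher and lower. Tat, encoding tyrosine aminotransferase, fell by 1.45 ± 0.10 (limma adjusted p = 0.000123), Tsc22d3, encoding GILZ, by 1.34 ± 0.15 (adjusted p = 0.000993), and the metallothionein gene Mt2 rose by 3.62 ± 0.38 (adjusted p = 0.000816). Fkbp5 and Per1, which glucocorticoids also induce, read 0.00 ± 0.15 and 0.22 ± 0.10 and did not pass. The list therefore held genes that moved both ways. The call of Nr3c1, the glucocorticoid receptor gene, was lost without any array other than injected replicate 2, and that of Hsd11b1, which reactivates glucocorticoids, without injected replicate 1 or 3 or not-injected replicate 2 or 3.

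Serpinh1 was set beside collagen, the chains it folds. Of 13 collagen chains, 1 rose, 1 fell and 11 did not pass, beside 14.2% of all genes called higher and 13.9% lower. Col4a1 rose by 0.71 ± 0.20 (limma adjusted p = 0.0331) and Col15a1 fell by 0.30 ± 0.08 (adjusted p = 0.0308). Col3a1 read 9.41, 9.48 and 9.33 without injection and 10.99, 9.35 and 10.70 with it, and did not pass. As with Serpinh1, injected replicates 1 and 3 were above the not-injected livers and replicate 2 was not. Among 16 genes of collagen folding and modification, 1 rose, 3 fell and 12 did not pass, beside the same shares of all genes. The prolyl hydroxylase subunit P4ha2 rose by 1.25 ± 0.12 (adjusted p = 0.000629), whereas P4ha1, another such subunit, was called lower (-0.52 ± 0.13, adjusted p = 0.0243). The KDEL receptor Kdelr2 fell by 0.32 ± 0.07 (adjusted p = 0.0114) and the disulfide isomerase Pdia3 by 0.25 ± 0.06 (adjusted p = 0.0227). The call of Col4a1 was lost without any array other than injected replicate 2. Those of Col15a1 and P4ha1 were lost without injected replicate 1 or 3 or not-injected replicate 2 or 3. That of Pdia3 was lost without injected replicate 3 or any not-injected array, and that of Kdelr2 without not-injected replicate 3.

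Serpinh1 is also a heat shock gene. Of 12 other heat shock genes 1 rose, 1 fell and 10 did not pass, beside 14.2% of all genes called higher and 13.9% lower. Hspb1, a small heat shock protein, rose by 2.27 ± 0.25 (limma adjusted p = 0.00102) and Dnaja1 fell by 0.37 ± 0.10 (adjusted p = 0.0276), while Hspa1b read -0.75 ± 0.40. The call of Dnaja1 was lost without injected replicate 1 or not-injected replicate 2 or 3.

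Several serpins are known from cells other than hepatocytes, and markers of such cells were read beside them. In bulk liver, a change in the number of cells of a type and a change in RNA per cell cannot be told apart. Serpinb9 is known in T and NK cells, of whose 12 measured markers 1 rose, 0 fell and 3 were low in both groups. Over all genes, 14.2% were called higher and 13.9% lower. Ccl5 rose by 0.89 ± 0.24 (limma adjusted p = 0.0322), and Cd3e, Ncr1 and Prf1 did not pass. The mean level of the list was 6.05 to 6.13 without injection and 5.97 to 6.26 with it. The call of Ccl5 was lost without any array other than injected replicate 3.

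Serpinb1a is known in neutrophils, of whose 10 measured markers 1 rose, 0 fell and 4 were low. The shares of all genes were 14.2% called higher and 13.9% lower. S100a8 rose by 0.74 ± 0.23 (limma adjusted p = 0.047), and the other 9 did not pass. Of these S100a9 read 0.54 ± 0.28 and the granule gene Ngp 0.05 ± 0.14. The granule genes Elane, Mpo, Camp and Ltf read -0.18 to -0.02, with Mpo and Ltf low in both groups. The mean level was 5.74 to 5.88 without injection and 5.74 to 6.02 with it. Serpinh1 is known in stellate cells and fibroblasts, of whose 13 measured markers 0 rose and 3 fell, namely Ecm1 by 0.50 ± 0.11 (adjusted p = 0.0144), Gfap by 0.33 ± 0.09 (adjusted p = 0.0287) and Reln by 0.38 ± 0.11 (adjusted p = 0.0419). The other 10 did not pass, among them Col3a1 (0.94 ± 0.37), Lum (0.61 ± 0.23) and Acta2 (0.39 ± 0.18). That list had a median difference of 0.07. Its mean level was 8.23 to 8.30 without injection and 8.15 to 8.54 with it. The call of S100a8 was lost without any not-injected array, that of Gfap without any array other than injected replicate 2, and that of Reln without injected replicate 2 or 3 or not-injected replicate 2 or 3.

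Of 11 markers of Kupffer cells and macrophages 3 rose and 2 fell, beside 14.2% of all genes called higher and 13.9% lower. Cd163 fell by 3.62 ± 0.24 (limma adjusted p = 0.000122), Lyz2 rose by 0.93 ± 0.13 (adjusted p = 0.0025) and Cd68 by 1.74 ± 0.33 (adjusted p = 0.00832). The other 2 called, Marco and Cd5l, read -0.80 ± 0.20 and 0.49 ± 0.10. The call of Marco was lost without any array other than injected replicate 2, and that of Cd5l without not-injected replicate 2. The mean level of the list was 9.26 to 9.70 without injection and 9.31 to 9.54 with it. Of 10 endothelial markers 4 rose and 0 fell, beside 14.2% of all genes called higher, led by Lyve1 (2.10 ± 0.15, adjusted p = 0.000201), Stab2 (0.96 ± 0.14, adjusted p = 0.00319) and Pecam1 (0.41 ± 0.10, adjusted p = 0.0215). Here the mean level was 8.29 to 8.38 without injection and 8.68 to 8.85 with it, so that the groups did not overlap, as in 46.2% of single genes. Lyve1 and Stab2 had by far the largest differences in it, the median difference of the list was 0.18, and Eng and Egfl7 read -0.18 and -0.03. The call of Clec4g was lost without injected replicate 1 or 2 or not-injected replicate 2 or 3. The call of Pecam1 was lost without injected replicate 1 or 3 or not-injected replicate 2 or 3.

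Of 5 adipocyte markers 1 rose, Lpl by 1.45 ± 0.08 (limma adjusted p = 9.01e-05), with mean levels of 6.70 to 6.74 and 7.03 to 7.24. Lpl and Fabp4 (0.89 ± 0.34, not called) had the largest differences in it. Adipoq, Retn and Lep read -0.22, -0.08 and -0.04, and the median difference of the list was -0.04. Of 5 cholangiocyte markers 0 passed by limma at an adjusted p under 0.05, and 2 had an unadjusted p under 0.05; the smallest was that of Epcam (0.58 ± 0.19, adjusted p = 0.056). Of 9 hepatocyte markers Apob rose by 0.29 ± 0.07 (adjusted p = 0.0246) and Fga fell by 0.29 ± 0.06 (adjusted p = 0.0142). The shares of all genes were 14.2% called higher and 13.9% lower. The call of Fga was lost without not-injected replicate 3 and that of Apob without injected replicate 1 or 3 or not-injected replicate 1 or 3. The part of any of these cells in the differences of the serpins was not tested.

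The genes nearest to each named serpin were found by the root mean square difference over the 6 arrays, after each gene was centred on its not-injected mean. The nearest to Serpina12 were the fatty acid elongase Elovl3 at 0.54, Cd163 at 0.57 and the steroid dehydrogenase Hsd3b5 at 0.68. Those nearest to Serpinb8 were Pigp at 0.11, Ripply3 at 0.2 and Wfdc2 at 0.24, and those nearest to Serpinb9 were Washc2 at 0.064, Osgin2 at 0.096 and Lcn2 at 0.1. For Serpina6 they were Gna14, Gstm6 and Aldh1a1, at 0.05 to 0.065. The nearest genes to Serpina12 were farther from it than those of any other named serpin. With 2 groups and 6 arrays, closeness mostly reflects the difference between the groups. For Serpinb1a the nearest was Nt5dc2 at 0.095 and for Serpinh1 Tia1 at 0.018, both with differences of the size of the serpin's own.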

How the data were processed

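Expression was measured in 6 mouse livers, 3 TFEB-injected and 3 not injected, grouped by the labels, which call them biological replicates. The authors deposited log2 values, 1 for each probe set and array. The submitters' processing notes name the R package affy and RMA, without versions; no filter is stated there. RMA usually equalises arrays and compresses low values, so a shift of all transcripts would not be seen, and precision is limited by the small number of arrays.

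Of 22690 probe sets, 64 were controls, 20380 had 1 symbol, 691 several and 1555 none. A gene took its probe set with the highest mean. Differences were fitted with limma 3.58.1 (R 4.3.3; lmFit, eBayes) over 12393 genes without a covariate, with Benjamini-Hochberg adjustment over all genes and a threshold of 0.05. Every serpin probe set was also taken from a fit over all 22626 probe sets, which gives the SE of single probe sets. The fit was tested on simulated data in which few genes were changed. There, 71.0% of differences of 0.5 and 99.0% of differences of 1 were called, and 6.59% of calls were false.

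The serpins and all lists were chosen with earlier results of these data known. Genes were named by rule: the listed serpins, other called serpins, up to 3 called members of each list with the smallest p (the member with the smallest p where none was called), and the 3 genes nearest to each serpin; other members, named for their known link to a serpin, were picked after their values were seen. Alternatives were a block for the replicate number, a variance trend with intensity, a test of the brighter genes (those not under the median), averaging a gene's probe sets, testing each probe set by itself, another round of quantile normalisation, median centring, and dropping each array in turn. Sequences came from RefSeq's GRCm38.p6 tables. Python 3.11.15, numpy 2.4.6, pandas 2.3.3 and matplotlib 3.10.9 were used.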

Additional observations from a re-analysis of the deposited data

How the results depend on the processing

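The differences of Serpina6, Serpinb1a, Serpinb8, Serpinb9 and Serpinh1 kept their sign under every alternative run in which they were measured, and moved by less than 1 SD (root mean square of the SDs of both groups). For Serpinb1a this covers 0.05 to 0.33 and for Serpinh1 0.08 to 0.26, with Serpinh1 called without injected replicate 2 alone. That of Serpina12 was -2.49 with the mean of its probe sets and -4.42 to -3.56 when 1 array was left out. The count of called genes was 3486, or 28.1%, and 1973 to 4378 when 1 array was left out. When every probe set was tested on its own, 5662 of 22626 probe sets were called, or 25.0%. Among serpins, 3 to 8 were called higher and 6 to 8 lower when 1 array was left out, and 23 to 62 of 148 partner and marker genes were called, against 44 with all arrays. Serpinb8, Serpinb1a and Serpina3a were not tested when the test was restricted to genes at or above the median level. Between same-numbered livers, deviations from the group means correlated at 0.136, 0.0567 and 0.0113, beside -0.163 to 0.0767 between livers with different numbers. With 3 arrays in each group these values cannot show whether same-numbered livers were handled together, which was not tested. With the replicate number as a block 3348 genes were called, with 5 serpins higher, Serpinb9c being added (adjusted p = 0.048), and 7 lower. Low signal limits Serpinb9c, Serpinb9g and Serpinb8, whose folds are not exact.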
